A study of Homo sapiens with 6 samples.

Results

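The transcripts of PA-1 cells given Wnt3a ligand were set against those of PA-1 cells given empty vector, with 1 RNA sequencing library on each side. PA-1 is a human ovarian teratocarcinoma line with features of embryonal, pluripotent cells. The study holds 6 libraries of this line, 1 each for Vector, Wnt3a, RIPK1, RIPK2, RIPK3 and RIPK4, where RIPK stands for receptor-interacting protein kinase. The Vector cells took 8 µg of the pCDNA3.1 plasmid for 48 h, the 4 kinase groups took 8 µg of a plasmid for the named kinase for 48 h, and the Wnt3a cells took 200 ng of ligand for 16 h. No gene was deleted and no other agent is named in any group. The labels give no plasmid amount for the Wnt3a cells, although all 6 groups stand under a field named transfection, and they do not say where the ligand came from. Ligand, plasmid and time therefore cannot be told apart in any difference below. Genes were taken where the mean RPKM (reads scaled to gene length and library size) over the 6 libraries was at least 1, which left 11881 of 20494 genes. Differences are log2(RPKM + 1) in Wnt3a minus Vector, a scale that understates the change of genes with low values. The text speaks of a 2-fold higher or lower gene where this difference reached 1 in size.

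Wnt ligands bind Frizzled receptors together with an LRP co-receptor and stop the destruction of beta-catenin, which then enters the nucleus and acts with TCF and LEF factors on target genes. In early embryos and in pluripotent cells the pathway is known for driving exit towards the primitive streak and posterior identities. It is intertwined there with the Nodal, BMP, FGF and retinoic acid pathways, and the genes of those pathways beyond the direct Wnt targets are described here.

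Each group has 1 library and so no replicate, and no difference below has a replicate check, an SD or a p-value. The Vector library held 17.25 M reads and the Wnt3a library 18.52 M, and the 6 libraries spanned 17.25 to 19.51 M. Ranges in brackets beside a ratio of RPKM are exact binomial 95% intervals from the reads of both libraries. Only counting error is in them, because reads that carry no molecular identifier need not be separate molecules, and each ratio compares 2 libraries and not 2 conditions. In bulk RNA, fewer cells with a transcript and less of it per cell cannot be told apart.

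Known Wnt targets served as a check of the Wnt3a label. AXIN2, a feedback inhibitor of the pathway, stood at 14.7 RPKM in Vector and 35.1 in Wnt3a, and LEF1 at 2.75 and 7.31. Their differences of 1.20 and 1.15 became 0.98 and 0.96 when the trend with GC content described below was subtracted. The caudal homeobox gene CDX1 had 1 read in Vector and 618 in Wnt3a. Of the 44 Wnt targets analysed, 15 were at least 2-fold higher, against 0.673% of all genes. The 1 that was 2-fold lower, against 1.43% of all genes, was LGR4, a receptor for R-spondins named after its values were seen. With the GC trend subtracted 10 were 2-fold higher and 1 lower, against 0.331% and 0.823% of all genes. The list median of 0.44 became 0.25. Embryonal carcinoma markers were present in both libraries, with 11 of 13 analysed and a summed level of 1242 RPKM in Vector and 1145 in Wnt3a. TDGF1, one of that list, was listed at 0 in both. Blood cell markers summed to 3.78 RPKM in Vector and 4.04 in Wnt3a, with CD48 and HBB among those at 0 in both. Endothelial markers summed to 78.6 and 94.8 RPKM, with 7 of 13 analysed and EMCN and ERG at 0 in both. PECAM1 stood at 29.2 and 26.2 RPKM, TIE1 at 19.7 and 33.7, and TEK at 11.1 and 13.8. Trophoblast and extraembryonic endoderm markers summed to 45.8 and 42.2 RPKM, with 6 of 18 analysed. TFAP2A stood at 23.2 and 18.7 RPKM and TFAP2C at 7.89 and 7.02, while CGA, ELF5, FOXA2, KRT7 and TP63 were at 0 in both. Mesenchymal markers summed to 2214 and 2489 RPKM, with 9 of 15 analysed and DCN and TWIST2 at 0 in both.

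Among the 11881 genes, 80 were 2-fold higher in Wnt3a (0.673%) and 170 were 2-fold lower (1.43%). The higher genes comprised 62 protein-coding genes, 15 small RNAs, 1 long noncoding RNA and 2 pseudogenes, and the lower ones 138 protein-coding genes, 31 small RNAs and 1 without a RefSeq match. Wnt3a was the highest of the 6 libraries at 64 of the 80 higher genes and the lowest at 133 of the 170 lower genes. Vector was the lowest library at 45 of the 80 and the highest at 129 of the 170, so Vector, and not only Wnt3a, often stood at the edge. Over all 11881 genes Wnt3a was highest at 2766 and lowest at 2653, and Vector was highest at 2292. The 2-fold genes were picked by the difference between these libraries, which by itself places both nearer the edges. These counts therefore do not show which of the 2 libraries stands apart. Only CDX1 stood in Wnt3a at least 2-fold above all other libraries (0.00842% of genes), and only SHISA3, CYP26A1 and the vault RNA VTRNA1-3 stood at least 2-fold below all of them (0.0253%). VTRNA1-3 was at 0 RPKM in Wnt3a and between 2.33 and 5.27 in the others. Vector stood 2-fold above all other libraries at 4 genes (0.0337%) and below them at 5 (0.0421%).

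The difference between the libraries also followed the base composition of the transcripts. Spearman's rho between the difference and the GC content of the longest transcript was 0.70 across 11779 genes, which are points from the same 2 libraries. In the tenth of genes with the lowest GC content the median difference was -0.47, with 62 genes 2-fold lower and 0 higher. In the tenth with the highest GC content it was 0.40, with 22 genes 2-fold higher and 2 lower. After the running median along GC content was subtracted, 39 genes were 2-fold higher (0.331%) and 97 lower (0.823%). Of the higher genes 33 of 76 with a GC value kept a 2-fold difference, and of the lower ones 72 of 163. The same rho was 0.78 for Wnt3a minus RIPK1 and 0.11 for Wnt3a minus RIPK2. How much of any single difference moves with GC content was not tested. The value with the trend subtracted is given beside named genes that the subtraction takes across the 2-fold line, and beside some others. Genes named as 2-fold apart without this value stayed 2-fold apart, except RPL19P12 and SNORD47, which had no GC value.

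**Figure D1:**
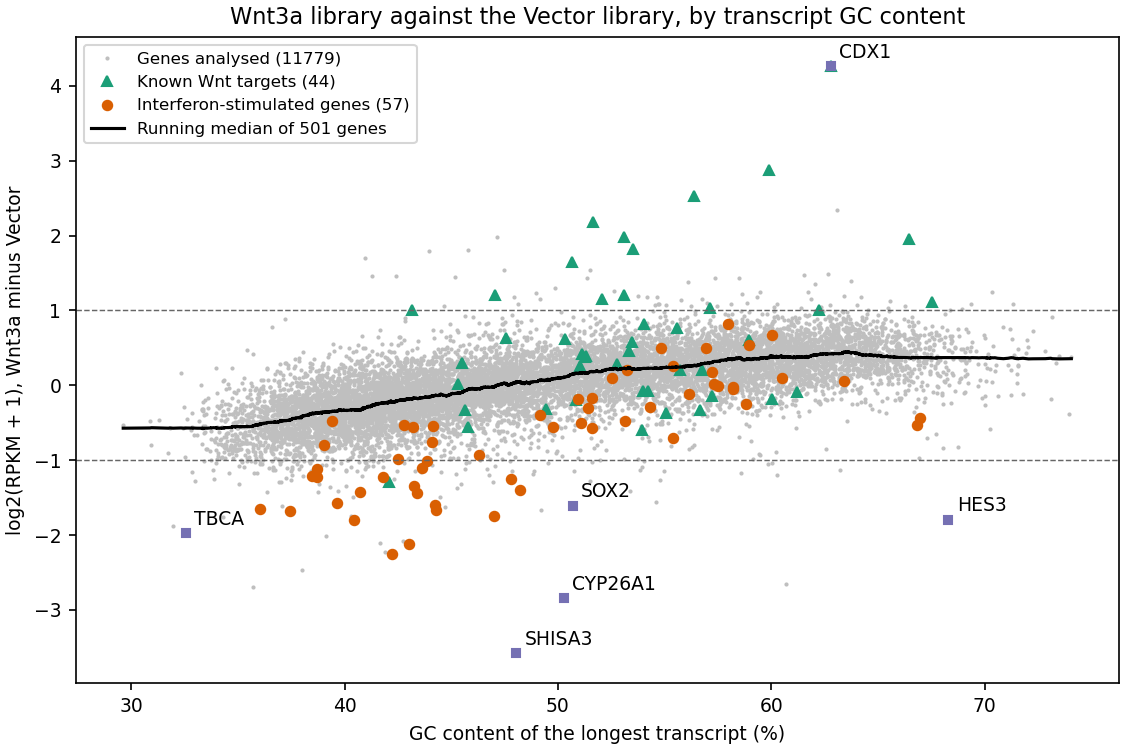
Each point is a gene, with the GC content of its longest transcript in percent on the horizontal axis and its difference in log2(RPKM + 1), Wnt3a minus Vector, on the vertical axis; triangles are known Wnt targets, circles interferon-stimulated genes, squares single named genes, the line the running median along GC content and the dashed lines a 2-fold difference. SHISA3, CYP26A1, SOX2 and HES3 lie far below the running median at their GC content, and TBCA lies below it too, at a GC content where the median itself is low.

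SHISA3 had the largest difference on the lower side of all genes analysed. Its product holds Wnt and FGF receptors back in the endoplasmic reticulum and so dampens both pathways. It stood at 31.6 RPKM in Vector, 1.73 in Wnt3a, 28.6 in RIPK1, 6.76 in RIPK2, 8.27 in RIPK3 and 13.3 in RIPK4. The Wnt3a library was the lowest and the Vector and RIPK1 libraries the highest, with the other kinases between. The 1075 reads in Vector and 63 in Wnt3a made it 18.3-fold lower (14.2 to 24.0). The difference was -3.58, and -3.62 with the GC trend subtracted.

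CYP26A1 encodes the enzyme that hydroxylates retinoic acid and so clears it, and is itself a textbook target of retinoic acid receptors. Its promoter is shown because it carries the direct repeat through which such receptors are known to bind. The direct repeat searched was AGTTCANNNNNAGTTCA on both strands, which is found in 4 of 35116 RefSeq promoters of 300 bases (0.0114%). Only this exact spelling, the one in CYP26A1, was searched, so the share does not cover other spellings of the repeat. The window runs from 250 bases before to 50 after the start of the gene, at chr10:93073643-93073942 on the plus strand of GRCh38.p14, and capitals mark the match, here on the opposite strand.
CYP26A1: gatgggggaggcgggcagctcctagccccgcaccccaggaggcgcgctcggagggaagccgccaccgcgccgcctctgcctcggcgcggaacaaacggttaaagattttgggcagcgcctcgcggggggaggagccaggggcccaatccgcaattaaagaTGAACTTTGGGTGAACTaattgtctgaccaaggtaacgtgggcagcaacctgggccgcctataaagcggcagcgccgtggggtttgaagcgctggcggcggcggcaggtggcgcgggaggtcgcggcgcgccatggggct

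CYP26A1 stood at 7.74 RPKM in Vector, 0.218 in Wnt3a, 9.24 in RIPK1, 7.07 in RIPK2, 7.59 in RIPK3 and 4.42 in RIPK4. The Wnt3a library held 10 reads against 331 in Vector, and the 5 plasmid libraries lay between 4.42 and 9.24 RPKM. The transcript was 35.5-fold lower in Wnt3a (19.1 to 74.8). It was the only 2-fold lower gene among those of retinoic acid handling and reception. CRABP2, a carrier that brings retinoic acid to its nuclear receptors, stood at 121 RPKM in Vector and 269 in Wnt3a, 2.22-fold higher (2.11 to 2.34), and between 98.1 and 171 in the 4 kinase libraries. It was the highest in Wnt3a, and with the GC trend subtracted its difference was 0.90. The related carrier CRABP1 stood at 132 and 176 RPKM. The receptors RARA, at 4.56 and 6.64 RPKM, and RARG, at 1.19 and 2.39, were under 2-fold apart on the scale used. Of the 14 members of the retinoic acid list analysed, 1 was 2-fold higher and 1 lower, against 0.673% and 1.43% of all genes. The list median of 0.27 became 0.05 with the GC trend subtracted.

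**Figure D2:**
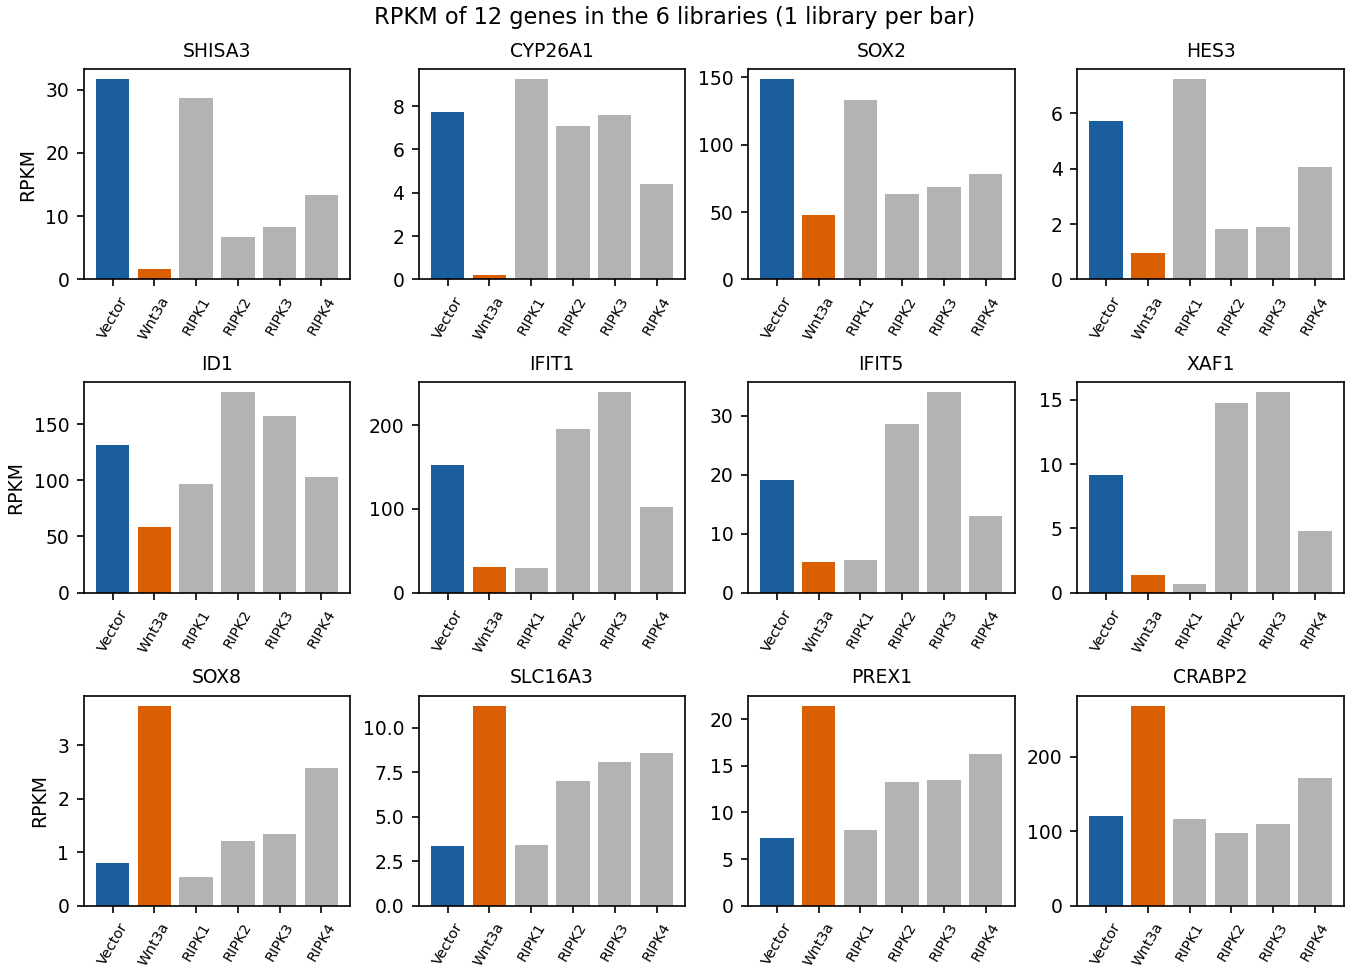
Bars give the RPKM of 12 genes, 1 panel per gene with its own linear axis from 0, in the libraries Vector (blue), Wnt3a (orange) and the 4 kinases (grey), 1 library per bar. SHISA3, CYP26A1, SOX2, HES3 and ID1 are lowest in Wnt3a, IFIT1, IFIT5 and XAF1 are low in both Wnt3a and RIPK1, and SOX8, SLC16A3, PREX1 and CRABP2 are highest in Wnt3a.

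Some pluripotency genes were lower in Wnt3a, while POU5F1 and LIN28A stood at nearly the same level in both libraries. Of the 20 analysed, 0 were 2-fold higher and 3 were 2-fold lower, against 1.43% lower among all genes, and the list median was -0.18, or -0.19 with the GC trend subtracted. SOX2, a transcription factor shared by pluripotent cells and neural progenitors, stood at 149 RPKM in Vector, 48.1 in Wnt3a, 133 in RIPK1, 63.2 in RIPK2, 68.5 in RIPK3 and 78.1 in RIPK4. It was lowest in Wnt3a and 3.09-fold lower than in Vector. PRDM14, a zinc-finger factor of the pluripotent state, stood at 56.8 and 25.2 RPKM and was also lowest in Wnt3a, with a ratio of 2.26 (2.09 to 2.43) between Vector and Wnt3a. The third was POLR3G, a subunit of RNA polymerase III that is enriched in pluripotent cells, at 50.2 and 14.1 RPKM.

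Several other members of the pluripotency list were lowest in Wnt3a without reaching 2-fold on the scale used. The de novo methyltransferase DNMT3B stood at 54.5 RPKM in Vector and 33.1 in Wnt3a, a 1.65-fold lower level (1.57 to 1.73), while its 4 other libraries lay between 45.6 and 56.4. GDF3, a Nodal-related ligand, stood at 1.75 and 0.662 RPKM, and L1TD1, an RNA-binding protein of pluripotent cells, at 2.06 and 0.70. In contrast POU5F1, the core factor OCT4, stood at 13.0 and 13.2 RPKM, with a ratio of 1.01 (0.907 to 1.13), and LIN28A, an inhibitor of let-7 processing, at 339 and 337 RPKM. TRIM71, a let-7 target and translational repressor, had the highest difference of the list, 0.90, at 31.4 RPKM in Vector and 59.4 in Wnt3a. It was lowest in Vector and stood between 52.6 and 77.5 RPKM in the kinase libraries, so Vector is the library apart.

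Neural and ectodermal progenitor genes gave 0 of 17 members 2-fold higher and 2 lower, against 1.43% lower among all genes. PROM1, the cell surface protein CD133 of progenitors, stood at 21.3 RPKM in Vector, 8.05 in Wnt3a, 20.4 in RIPK1, 15.9 in RIPK2, 15.8 in RIPK3 and 12.8 in RIPK4. It was lowest in Wnt3a and 2.65-fold lower than in Vector (2.43 to 2.90). FEZF1, a forebrain zinc-finger repressor, stood at 3.77 and 1.18 RPKM, but RIPK2 and RIPK3 were lower still, at 1.08 and 0.797. The list median was -0.06, and -0.30 with the GC trend subtracted, when 12 of the 17 members lay below 0. The anterior and dorsal factors ZIC2, at 104 and 72.4 RPKM, and ZIC5, at 16.8 and 10.4, lay on the lower side, and GBX2, a factor of the hindbrain side of the midbrain border, had a ratio of 1.02 (0.967 to 1.07). NES, the intermediate filament nestin, was at 208 and 194 RPKM.

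TGF-beta, Nodal and BMP genes gave 0 of 42 members 2-fold higher and 4 lower, against 1.43% lower among all genes. With the GC trend subtracted 5 were lower, against 0.823% of all genes. The 4 were 2 ID genes, which encode inhibitors of basic helix-loop-helix factors and are direct targets of BMP signalling, the ligand BMP6 and the secreted inhibitor CER1. ID1 stood at 131 RPKM in Vector, 58.0 in Wnt3a, 97.2 in RIPK1, 178 in RIPK2, 157 in RIPK3 and 103 in RIPK4. It was lowest in Wnt3a and 2.26-fold lower than in Vector (2.12 to 2.42). ID4 stood at 54.8 RPKM in Vector and 21.8 in Wnt3a, with the kinases between 35.3 and 41.1. BMP6 stood at 9.71 and 3.48 RPKM, with the kinases between 5.08 and 6.21, and was 2.79-fold lower (2.37 to 3.30).

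Inhibitors of Nodal lay on the same side. CER1, the secreted antagonist Cerberus, stood at 91.0 RPKM in Vector and 44.9 in Wnt3a, against 59.8 to 91.8 in the kinase libraries. LEFTY2, a feedback antagonist of Nodal, stood at 9.44 RPKM in Wnt3a, a 1.99-fold lower level than in Vector (1.74 to 2.27), with a difference of -0.92 that became -1.27 with the GC trend subtracted. Each of these 5 genes was lowest in Wnt3a among the 6 libraries. Over the list the median was -0.09, or -0.15 with the GC trend subtracted, with 26 of 42 members below 0 against 46.7% of all genes.

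FGF and Notch genes showed single members apart. FGF2, a growth factor that sustains pluripotent cells, stood at 13.1 RPKM in Vector and 5.38 in Wnt3a, against 7.65 to 11.5 in the kinase libraries, and its difference of -1.15 became -0.68 with the GC trend subtracted. FGF18 was higher at 4.07 against 1.84 RPKM. HES3, a repressor of the HES family expressed in neural progenitors, stood at 5.74 RPKM in Vector, 0.943 in Wnt3a, 7.24 in RIPK1, 1.81 in RIPK2, 1.91 in RIPK3 and 4.05 in RIPK4. It was lowest in Wnt3a and highest in RIPK1, and the 68 reads in Vector against 12 in Wnt3a gave a 6.08-fold lower level (3.27 to 12.3). Its transcript is GC-rich, and with the trend subtracted the difference of -1.79 became -2.16.

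A further pair of Notch genes were 2-fold higher. JAG2, a Notch ligand, stood at 0.552 RPKM in Vector and 2.27 in Wnt3a, and between 0.597 and 1.63 in the kinase libraries. HES6, a HES protein that antagonises HES1, stood at 5.42 RPKM in Vector, 11.9 in Wnt3a and about the same in RIPK4, and near the Vector level in the other kinase libraries, between 4.66 and 5.49. Both fell under 2-fold with the GC trend subtracted, each at 0.64. The paralogous ligand JAG1 went the other way, at 23.0 RPKM in Vector and 14.6 in Wnt3a, its lowest library. Of 26 Notch genes analysed 2 were thus higher and 1 lower, against 0.673% and 1.43% of all genes. The list median was 0.28, or 0.11 with the GC trend subtracted.

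The Wnt machinery itself gave 0 of 19 ligands, receptors and carriers at least 2-fold apart. FZD5, a Wnt receptor, stood at 8.61 RPKM in Vector and 4.25 in Wnt3a, where it was lowest of the 6 libraries, and was 2.03-fold lower (1.74 to 2.37) on the scale without a pseudocount. WLS, the protein that carries Wnts to the cell surface, stood at 73.5 and 111 RPKM and was highest in Wnt3a, with a ratio of 1.51 (1.45 to 1.57). The ligand WNT10B was at 4.98 and 9.73 RPKM, and the receptor ROR2 at 22.7 and 38.9. The co-receptor LRP6 was at 10.8 and 10.7 RPKM.

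Interferon-stimulated genes were the list with the most 2-fold lower members. These genes encode sensors and effectors of antiviral defence and are switched on downstream of interferon receptors at a DNA element with a repeated GAAA core. Of 57 analysed, 0 were 2-fold higher and 20 were 2-fold lower, or 35.1% against 1.43% of all genes. The list median was -0.54, and -0.65 with the GC trend subtracted, when 14 members were 2-fold lower and 51 lay below 0. Of the 25 largest falls, counted without small RNAs, unnamed transcripts and known Wnt targets, 11 belonged to this list. The number of 2-fold lower members lay between 14 and 23 in all 7 alternative settings tried.

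The promoters of IFIT1, IFIT5 and DTX3L are shown because these genes were among the largest falls and carry the core. The core searched was GAAANNGAAA on both strands, which is found in 1255 of 35116 RefSeq promoters (3.57%). Among the genes analysed with a RefSeq promoter 347 of 9569 had it (3.63%), against 27 of 45 in the interferon list and 11 of 17 among its 2-fold lower members. It was found for 3 of 99 lower genes outside the list and for 1 of 48 higher genes. A match is a stretch of letters and not a measured binding site. Windows are again 250 bases before to 50 after the gene's start on GRCh38.p14, each on the plus strand, at chr10:89392373-89392672 for IFIT1, chr10:89414318-89414617 for IFIT5 and chr3:122564088-122564387 for DTX3L. Capitals mark matches, of which IFIT1 has 2, IFIT5 has 3 and DTX3L has 1.
IFIT1: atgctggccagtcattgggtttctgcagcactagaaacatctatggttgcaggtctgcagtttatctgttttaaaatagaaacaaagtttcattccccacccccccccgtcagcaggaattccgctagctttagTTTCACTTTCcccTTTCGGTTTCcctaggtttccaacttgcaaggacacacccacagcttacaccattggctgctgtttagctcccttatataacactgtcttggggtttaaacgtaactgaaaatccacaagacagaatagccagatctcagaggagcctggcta
IFIT5: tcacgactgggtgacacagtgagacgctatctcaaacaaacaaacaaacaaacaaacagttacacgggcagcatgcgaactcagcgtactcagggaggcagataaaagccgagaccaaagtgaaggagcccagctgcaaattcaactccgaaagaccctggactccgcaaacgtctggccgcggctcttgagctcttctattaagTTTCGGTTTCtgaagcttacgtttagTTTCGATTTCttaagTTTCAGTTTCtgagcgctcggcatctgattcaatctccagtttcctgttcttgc
DTX3L: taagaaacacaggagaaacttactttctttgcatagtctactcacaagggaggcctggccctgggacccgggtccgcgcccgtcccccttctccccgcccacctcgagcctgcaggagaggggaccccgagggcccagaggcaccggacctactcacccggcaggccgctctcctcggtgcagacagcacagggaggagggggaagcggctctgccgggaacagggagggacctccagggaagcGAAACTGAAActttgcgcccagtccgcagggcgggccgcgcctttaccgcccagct

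IFIT1, an effector that binds viral RNA ends, stood at 152 RPKM in Vector, 31.2 in Wnt3a, 29.1 in RIPK1, 196 in RIPK2, 239 in RIPK3 and 102 in RIPK4. The Wnt3a and RIPK1 libraries were both low, RIPK2 and RIPK3 stood above Vector, and RIPK4 lay below it. Its relative IFIT5 stood at 19.1 and 5.25 RPKM, 3.63-fold lower, and IFIT3 at 11.6 and 2.97, 3.91-fold lower. DTX3L and PARP9, partner proteins that modify histones with ubiquitin and ADP-ribose, share the promoter region printed for DTX3L, which lies head to head with PARP9. DTX3L stood at 20.4 RPKM in Vector and 6.07 in Wnt3a, and PARP9 at 13.8 and 4.46, so that the pair were 3.36-fold and 3.10-fold lower.

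Of the cytosolic RNA sensors, DDX58 and IFIH1 were 2-fold lower and DHX58 was not. DDX58, the sensor RIG-I, stood at 25.3 RPKM in Vector and 6.54 in Wnt3a, its lowest library, and IFIH1, the sensor MDA5, stood at 8.16 and 2.61. The third member DHX58 stood at 0.978 and 0.945 RPKM. Among the 2'-5' oligoadenylate synthetases, which make a second messenger that activates RNase L, OAS2 stood at 22.5 and 5.99 RPKM and OAS1 at 31.2 and 11.2. OAS3 stood at 34.8 and 28.3 RPKM and was thus under 2-fold lower, and OASL at 3.47 and 2.61.

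Other interferon-stimulated genes stood near the Vector level. The ubiquitin-like modifier ISG15 stood at 849 RPKM in Vector, 882 in Wnt3a and 209 in RIPK1. IFI27 stood at 200 RPKM in Vector and 193 in Wnt3a, with a ratio of 1.04 (0.984 to 1.09) between them, and at 7.54 in RIPK1. IFI6 stood at 896 and 828 RPKM in Vector and Wnt3a and at 112 in RIPK1, and IFITM1, a membrane protein that blocks virus entry, at 419, 447 and 101. These 4 genes were low in RIPK1 and near the Vector level in Wnt3a.

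The lower members also differed from the rest of the list in base composition. The 20 genes that were 2-fold lower had transcripts of 36.0 to 48.2% GC with a median of 42.6%, and the other 37 had a median of 54.3%. Across the 57 genes Spearman's rho between the difference and GC content was 0.78, as a description of points from the same 2 libraries. With the GC trend subtracted the lower set had a median difference of -1.22 and the other set -0.38. The sets were split by the difference itself, which followed GC content over all genes. The order of these medians and the contrast in GC content are thus partly set by the split. In RIPK1 minus Vector, which shares the Vector library, 18 of the 20 and 15 of the 37 were 2-fold lower, against 65 of all 11881 genes. The 20 were picked for low values against that same Vector library, so the contrast of 18 with 15 is partly set by the picking. Among the 6 libraries the lowest value of a member fell in RIPK1 for 46 genes, in Wnt3a for 10 and in Vector for 1. The labels give 8 µg of plasmid for 48 h for Vector, and 200 ng of ligand for 16 h with no plasmid amount for Wnt3a. The part of plasmid and treatment time in these values was not tested.

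**Figure D3:**
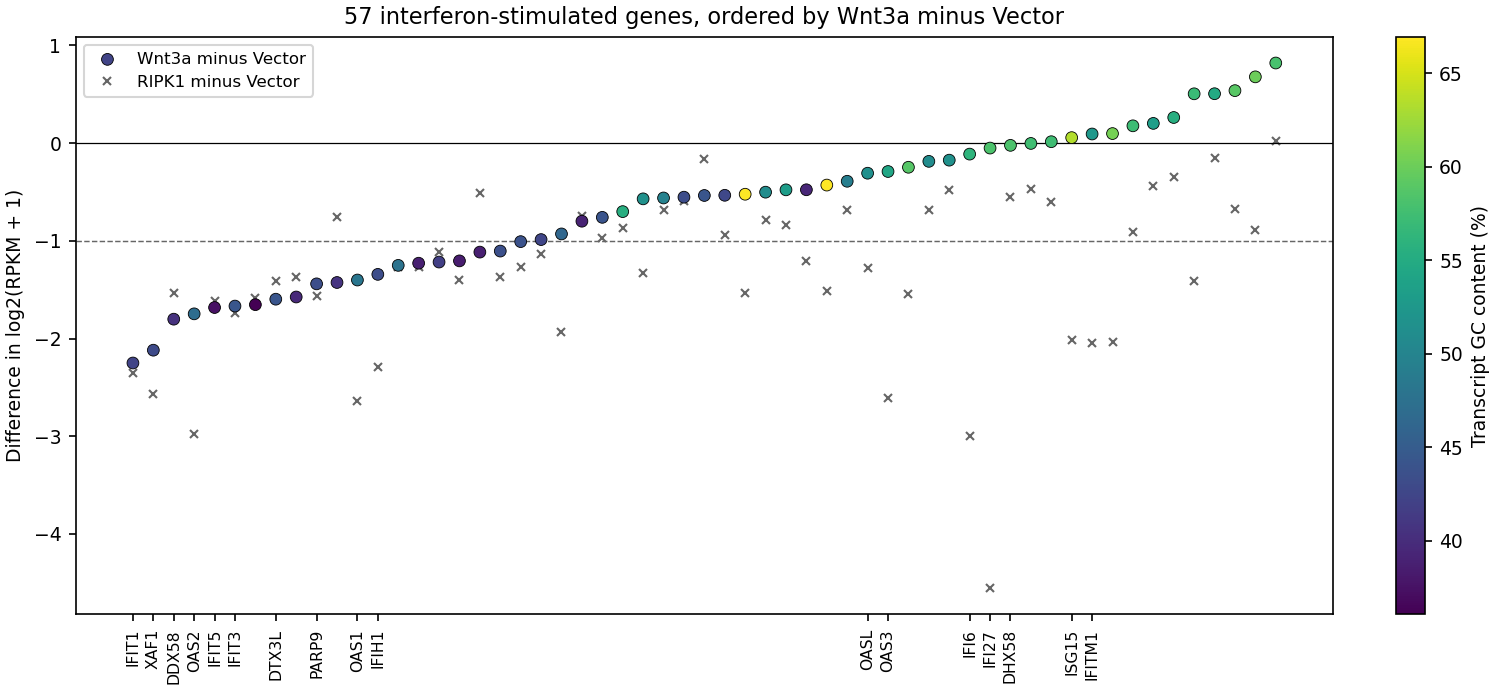
The 57 interferon-stimulated genes, some of them labelled, are ordered by their difference in log2(RPKM + 1), Wnt3a minus Vector (circles, coloured by transcript GC content in percent), with RIPK1 minus Vector as crosses; the dashed line is a 2-fold lower level. The 20 lowest circles are all at or under 48.2% GC, and IFI27, IFI6 and ISG15 have circles near 0 with crosses far below.

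Of 39 hypoxia and glycolysis genes 4 were 2-fold higher, against 0.673% of all genes, and 0 lower. Above 0 lay 27 members (69.2%) and below it 12, against 53.3% of all genes above 0. The list had a median of 0.39, or 0.19 with the GC trend subtracted. SLC16A3, the lactate exporter MCT4, stood at 3.35 RPKM in Vector, 11.2 in Wnt3a, 3.42 in RIPK1, 6.98 in RIPK2, 8.06 in RIPK3 and 8.55 in RIPK4. It was highest in Wnt3a and lowest in Vector and RIPK1, with a ratio of 3.35 (2.92 to 3.87) to Vector. P4HA2, a prolyl hydroxylase of collagen, stood at 2.83 and 7.5 RPKM, the brain aldolase ALDOC at 6.68 and 16.0, and the stress-induced mTOR inhibitor DDIT4 at 13.4 and 29.4. SLC16A3 and P4HA2 kept a 2-fold difference with the GC trend subtracted, and ALDOC (0.86) and DDIT4 (0.73) did not. ADM, the vasodilator peptide adrenomedullin and a common hypoxia marker, lay the other way at 40.2 and 24.5 RPKM, and its difference of -0.69 became -1.06 with the trend subtracted.

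Sterol and fatty acid synthesis genes gave 0 of 34 members 2-fold apart in either direction, but the median was 0.35, or 0.21 with the GC trend subtracted. FASN, fatty acid synthase, stood at 53.1 RPKM in Vector and 99.0 in Wnt3a, a ratio of 1.86 (1.81 to 1.92). RIPK4 was near Wnt3a at 97.7 RPKM, and RIPK1 nearer Vector at 57.0. DHCR7, a late enzyme of the sterol route, stood at 23.2 and 38.7 RPKM. CYP51A1 and SC5DL, 2 other enzymes of that route with AT-rich transcripts, were lower in Wnt3a, 1.70-fold (1.55 to 1.88) and 1.74-fold (1.58 to 1.91).

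Most genes for the extracellular matrix and for axon guidance cues lay above 0 by small amounts. Of 52 matrix genes 45 lay above 0, against 53.3% of all genes, and 39 did so with the GC trend subtracted, against 5884 of all 11779 genes. As deposited 3 were 2-fold higher and 1, POSTN, was lower, against 0.673% and 1.43% of all genes. FBLN2, a fibulin of basement membranes, stood at 9.60 RPKM in Vector and 22.5 in Wnt3a, the syndecan SDC1 at 2.96 and 7.19, and perlecan, HSPG2, at 3.61 and 8.24. All 4 were under 2-fold with the GC trend subtracted, FBLN2 at 0.75, SDC1 at 0.67, HSPG2 at 0.60 and POSTN at -0.70. The cell adhesion protein THBS1 stood at 9.30 and 18.7 RPKM, and its difference of 0.93 became 1.01, which made it the only 2-fold member of the list after the subtraction. The median of the list was 0.41, or 0.16 with the GC trend subtracted. Among mesenchymal markers, COL1A1 stood at 32.6 and 60.5 RPKM and PDGFRB at 3.70 and 7.13, while PDGFRA stood at 7.10 and 6.13.

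Of 28 semaphorins, plexins, netrins, slits and their receptors 23 lay above 0, against 53.3% of all genes, and 21 did so with the GC trend subtracted. Among them 1 was 2-fold higher, against 0.673% of all genes. The list median was 0.45, or 0.17 with the GC trend subtracted. PLXNA2, a semaphorin receptor, stood at 3.07 RPKM in Vector and 8.17 in Wnt3a, 2.67-fold higher (2.44 to 2.92), and between 4.47 and 7.62 in the kinase libraries. Its difference of 1.17 became 0.95 with the GC trend subtracted, which left 0 members of the list 2-fold apart. The ligand SEMA3F was 2.18-fold higher (1.84 to 2.59), at 6.55 RPKM in Wnt3a. PLXNC1 was 1 of 5 members below 0, at 5.83 and 2.78 RPKM, and was lowest in Wnt3a.

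**Figure D4:**
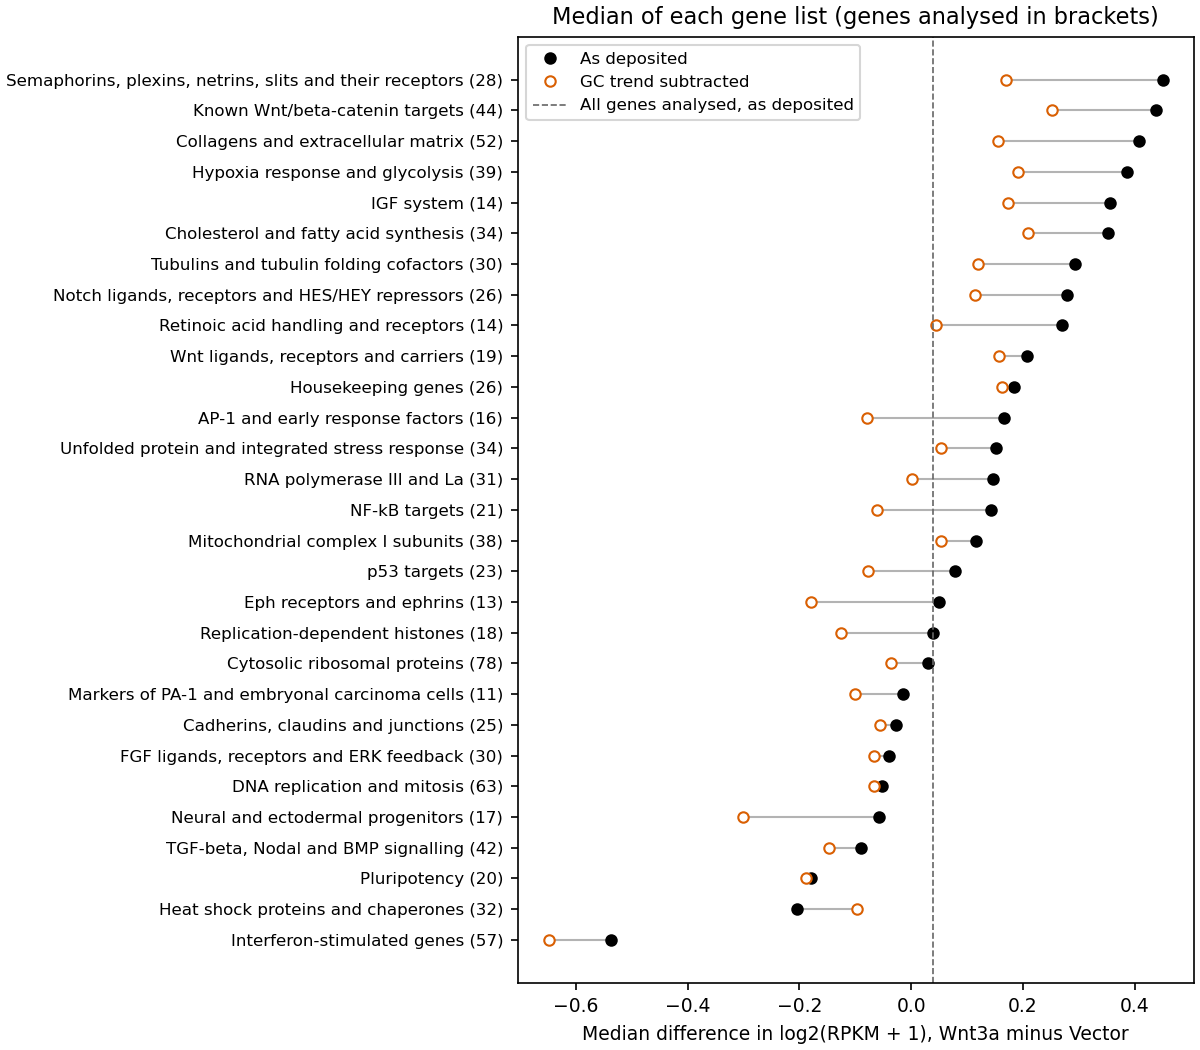
Each row is a gene list with at least 10 genes analysed, and the horizontal axis gives the median difference in log2(RPKM + 1), Wnt3a minus Vector, as deposited (filled) and with the GC trend subtracted (open); the dashed line is the median of all genes as deposited, 0.04. The interferon list stands apart at -0.54 and -0.65, and most lists on the right move towards 0 when the trend is subtracted.

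Of 30 tubulin and cofactor genes 2 were 2-fold higher and 2 were lower, against 0.673% and 1.43% of all genes. The higher ones were under 2-fold with the GC trend subtracted. The beta-tubulins TUBB2A and TUBB2B, near-identical neighbours whose reads the counting may have split between them, stood at 446 and 1010 RPKM and at 164 and 353 RPKM in Vector and Wnt3a. RIPK4 was the next highest library for both, at 829 and 249 RPKM. Their differences of 1.18 and 1.11 became 0.82 and 0.81 with the GC trend subtracted. TBCA, a chaperone that captures beta-tubulin during folding, stood at 55.5 RPKM in Vector, 13.4 in Wnt3a, 44.1 in RIPK1, 18.5 in RIPK2, 25.3 in RIPK3 and 28.5 in RIPK4. MZT1, a small subunit of the gamma-tubulin complexes that nucleate microtubules, stood at 25.4 and 6.16 RPKM. Both were lowest in Wnt3a and over 4-fold lower than in Vector, and both transcripts belong to the tenth of genes lowest in GC content. Subtracting the GC trend moved their differences of -1.97 and -1.88 to -1.41 and -1.31.

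A few other genes with AT-rich transcripts were also lower. SSB, the La protein that protects the ends of RNA polymerase III transcripts, stood at 171 RPKM in Vector and 69.0 in Wnt3a. SRP9, a subunit of the signal recognition particle, stood at 18.5 and 5.40 RPKM, and the chromatin protein DEK at 146 and 51.1. All 3 lay between these levels in the kinase libraries except for SSB, which was lowest in RIPK2 at 63.8. SSB fell under 2-fold with the GC trend subtracted, at -0.81, and SRP9 and DEK stayed over it at -1.13 and -1.17. The 31 genes of the RNA polymerase III and La list gave 0 higher and 2 lower, SSB and POLR3G, against 1.43% lower among all genes. The list median was 0.15.

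The largest rises outside the Wnt targets included genes of varied roles. PREX1, an activator of Rac GTPases, stood at 7.28 RPKM in Vector, 21.4 in Wnt3a, 8.07 in RIPK1, 13.2 in RIPK2, 13.5 in RIPK3 and 16.2 in RIPK4. It was highest in Wnt3a and 2.94-fold higher than in Vector. SOX8, a factor of neural crest and glia, stood at 0.799 and 3.74 RPKM, with RIPK4 next at 2.58 and the other kinases at 1.34 or less. ZNF503, a transcriptional repressor of the developing brain, stood at 1.49 and 5.35 RPKM, with RIPK4 next at 3.79. SOX8 and ZNF503 were just under 2-fold with the GC trend subtracted, at 0.96 and 0.94.

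PALM3, a paralemmin family member, stood at 7.13 RPKM in Vector and 21.6 in Wnt3a, and WSCD1 at 7.02 and 19.8, with RIPK4 at 14.1. IGDCC3, a cell surface protein of the immunoglobulin superfamily, stood at 23.7 and 57.6 RPKM, and the imprinted noncoding RNA H19 at 2.31 and 6.57. UHRF1, which maintains DNA methylation at replication, stood at 16.0 and 34.9 RPKM. Of 63 genes in the DNA replication and mitosis list 1, UHRF1, was 2-fold higher and 1, CDK1, was lower, against 0.673% and 1.43% of all genes. CDK1 stood at 36.4 and 17.6 RPKM, and its difference of -1.01 became -0.52 with the GC trend subtracted. The list median was -0.05. IGDCC3, H19 and UHRF1 were under 2-fold with the GC trend subtracted, at 0.89, 0.75 and 0.84. Wnt3a was the highest library at 22 of the 25 largest rises, which were picked for standing high in it against Vector. With the GC trend subtracted 11 of the 25 kept a 2-fold difference, against 24 of the 25 largest falls. The lists end at unlike sizes, at 1.11 for the rises and -1.41 for the falls. Over all 2-fold genes with a GC value, 33 of 76 higher and 72 of 163 lower ones kept a 2-fold difference.

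Some of the largest differences rest on few reads or on genes with close copies and are uncertain. The histone genes HIST1H2BE and HIST1H4E had 1 and 2 reads in Vector and 28 and 25 in Wnt3a, with intervals of 4.31 to 1066 and 2.90 to 101 on their ratios. NACA2, HNRNPCL1 and RPL19P12 resemble copies of other expressed genes, and had 12, 7 and 13 reads in Vector against 60, 43 and 57 in Wnt3a. For these 3, Vector was the lowest library and Wnt3a was not the highest. RPL23A, at 47.8 and 120 RPKM, is a ribosomal protein gene with many processed copies. RHCE, at 2.62 and 0.359 RPKM, has the close paralogue RHD, and GNG10, at 6.48 and 1.65, overlaps the read-through gene DNAJC25-GNG10.

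Small RNAs were apart in both directions, and their RPKM rests on short lengths. Of 175 analysed, 31 were lower and 15 higher, against 1.43% and 0.673% of all genes. RMRP, the RNA of a ribonuclease that processes mitochondrial and ribosomal RNA, was at 0 in Vector and between 3.48 and 4.53 RPKM in all 5 other libraries, 4.07 in Wnt3a. The box C/D small nucleolar RNA SNORD47 stood at 155 RPKM in Vector and 51.2 in Wnt3a, and between 45.9 and 71.4 in the kinases. In these 2 cases Vector was the library that stood apart. The small RNAs named here were chosen after their values were seen.

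Other lists gave few members apart, where 0.673% of all genes were 2-fold higher and 1.43% lower. Heat shock and chaperone genes gave 0 of 32 in either direction with a median of -0.20, p53 targets 0 of 23 with a median of 0.08, and NF-kB targets 0 of 21 with a median of 0.14. Mitochondrial complex I genes gave 1 of 38 lower, NDUFA5, at 13.7 and 4.91 RPKM, and its difference of -1.31 became -0.76 with the GC trend subtracted. Of 78 cytosolic ribosomal protein genes 1 was higher and 3 lower, with a median of 0.03, and of 13 Eph receptors and ephrins EPHA3 and EPHA7 were lower, neither of them by 2-fold with the GC trend subtracted (-0.82 and -0.68). EPHA7 stood at 16.2 RPKM in Vector and 6.97 in Wnt3a and was lowest in Wnt3a, and EPHA3 at 17.4 and 7.29 was lower still in RIPK2 and RIPK3, at 6.69 and 6.39.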

How the data were processed

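RNA of PA-1 cells was sequenced in 6 libraries, 1 per group, and groups and table columns were matched by the labels' titles. The authors deposited 1 table of RPKM values, 1 column per library with no pooling, per the file headers. GSNAP, DESeq and hg19 are named in the submitters' processing notes, without roles or versions, and the annotation and counting rule are not given here. RPKM was used as deposited, with genes at a mean of at least 1 RPKM over the 6 libraries kept and a pseudocount of 1 added before log2.

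Whole reads were recovered from the RPKM values, which are printed to 5 significant digits. The library totals came from the commonest ratios among low genes and from the lengths of small nucleolar RNAs. For 6480 of the 11881 genes 1 length gave whole reads in all libraries. For 4953 high-count genes the fitting length nearest to the GENCODE 29 annotation was taken, and for 448 the reads were approximated from that length, except for 5 genes without one, so read numbers of these genes are approximate. The recovery was checked on simulated data. Ratio intervals are exact binomial at 95%. GC content is that of the longest GENCODE 29 basic transcript, and the GC trend is the running median of 501 genes. Gene classes and promoters are from RefSeq (GRCh38.p14), which matched 20379 genes, and no coordinates were taken for the hg19 table itself. Python 3.11.15, numpy 2.4.6, pandas 2.3.3 and scipy 1.17.1 were used.

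No test was made, since each group is 1 library. Genes were picked for naming by a rule, and the text gives only some of them. The rule took the 25 largest rises and falls among genes 2-fold apart (small RNAs, unnamed transcripts and known Wnt targets left out). It also took the 6 most different members of every list, protein-coding genes with Wnt3a 2-fold outside all other libraries, and 5 Wnt targets as a check. Other list members were named after their values were seen. The genes and lists were chosen with earlier results of these data known. Alternatives changed the pseudocount, the filter, the scaling, the GC trend and the reference library. The values of a few genes are not reported here.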

Additional observations from a re-analysis of the deposited data

How the results depend on the processing

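The counts of genes at least 2-fold apart depend on the settings. With a pseudocount of 0.1, 225 genes were higher and 294 lower, and with 0.5, 134 were higher. With a mean RPKM of at least 5, 39 were higher. With the GC trend subtracted, 39 were higher and 97 lower. Against the median of the 5 plasmid libraries in place of Vector, 32 were higher and 44 lower. With a pseudocount of 0.1, Wnt3a stood 2-fold above all other libraries at 4 genes and below them at 10, and Vector below them at 16. With the GC trend subtracted from each library, Wnt3a stood above all others at 3 genes and Vector at 1. NACA2 and RPL19P12 changed sign against the plasmid median, at -0.0944 and -0.0746. The other 76 of the 78 genes that were picked for naming and 2-fold apart kept their direction in each setting that gave them a value. The cause was not tested. Of those genes 47 of 77 were still 2-fold apart with the GC trend subtracted and 36 of 78 against the plasmid median. Counts of 2-fold lower interferon-stimulated genes stayed within 14 to 23. No paired analysis was possible because each group holds 1 library and the labels give no replicate numbers. Depth limits the low genes: ratios built on 1 to 13 reads in a library have wide intervals, and small RNAs of few reads are not resolved.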
